A study of Drosophila melanogaster with 10 samples.

Results

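The genes described here make, store, break down and move the sugars trehalose and glycogen in the fruit fly Drosophila melanogaster. They are 8 genes chosen by name for these functions, and all are among the 10844 genes that a probe set of the array names alone. They are Tps1, Treh, Glys, AGBE, Glyp, Tret1-1, CG1208 and CG1213. Glys and Glyp are also written GlyS and GlyP. RNA came from whole adult females of 10 laboratory lines, of which 5 were unselected controls and 5 came from selection for heat resistance, and each line was read on 1 array. The series design calls the lines of each group independent, and the labels used here give no age, genetic background or treatment before sampling. Levels are log2(intensity + 1) of probe set intensities, and a difference is the mean of the selected lines minus the mean of the control lines on that scale.

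Trehalose, a disaccharide of glucose, is the main sugar of insect blood. The fat body makes it from glucose phosphates and releases it through transporters, and the enzyme trehalase splits it again where tissues take up the glucose. Glycogen is the branched glucose store of fat body, muscle and ovary, built by glycogen synthase and branching enzyme and cut by glycogen phosphorylase. In insects trehalose is also known to protect proteins and membranes from heat and drying.

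Tps1, the trehalose synthase gene, and the 3 transporter genes Tret1-1, CG1208 and CG1213 had higher means in the selected lines, and Treh, Glys and AGBE had means close to those of the control lines. Mean levels were 1.5-fold higher for CG1208, 1.45-fold for CG1213, 1.42-fold for Tps1 and 1.34-fold for Tret1-1, on the log2(value + pseudocount) scale. They were 1.15-fold higher for Glyp, and within 1.05-fold for AGBE, Glys and Treh. With limma, fitted over 10960 features, no feature passed an adjusted p of 0.05 (0% of features, with a smallest adjusted p of 0.232), so none of the 8 genes is called changed. At an unadjusted p under 0.05 stood 4 of the 8 genes, all with higher means, against 5.55% of all features higher and 9.52% in either direction. The 8 genes were chosen with earlier results of these data known. The selected mean was the higher one for all 8, as for 53.7% of all features. None of the 8 had groups that did not overlap, against 1.59% of all features. The median difference of the 8 genes was 0.31, beside 0.0075 for all features.

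**Figure D1:**
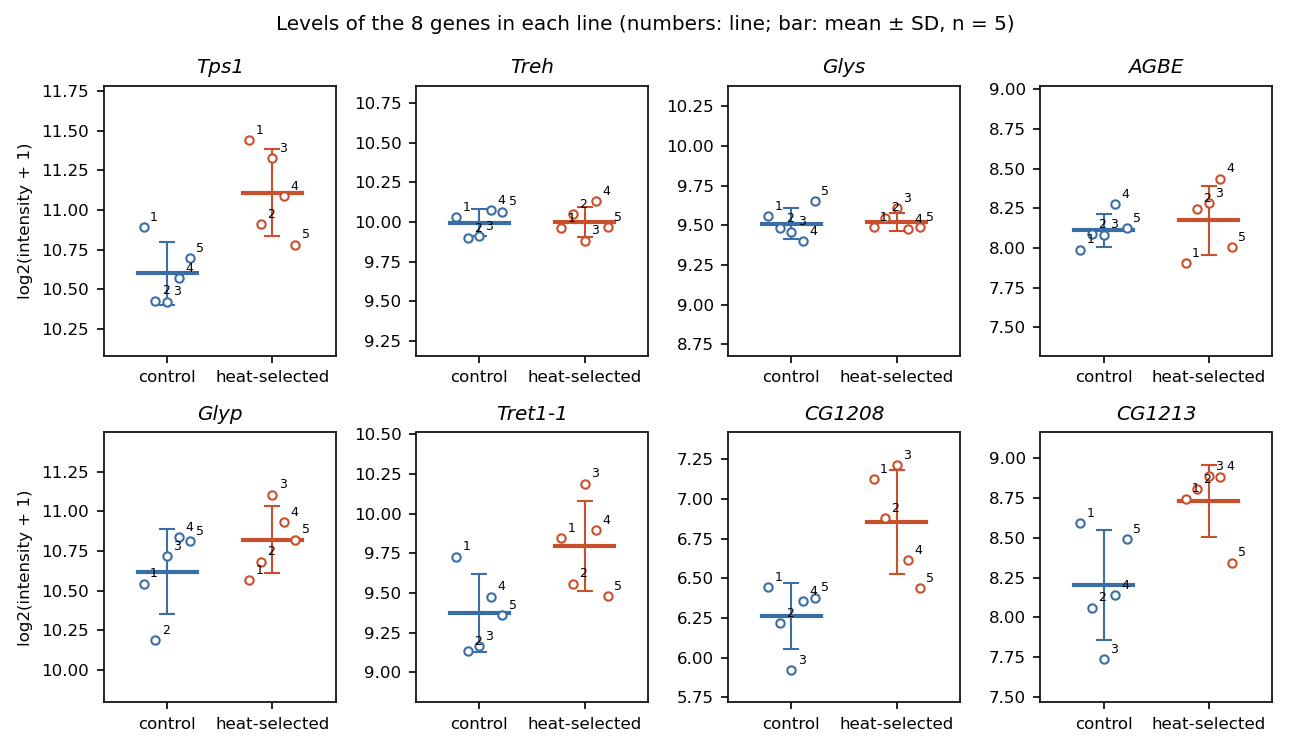
Log2(intensity + 1) of the 8 genes in the 5 control and 5 heat-selected lines, with each point numbered by its line and bars for the mean ± SD (n = 5). The vertical axes span the same range in each panel; Tps1, Tret1-1, CG1208 and CG1213 lie higher in the selected lines with overlapping groups, while Treh and Glys hardly vary.

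Tps1 encodes trehalose-6-phosphate synthase, which makes trehalose from glucose phosphates. Its level was 10.89, 10.43, 10.42, 10.57 and 10.70 in control lines 1 to 5, and 11.44, 10.91, 11.33, 11.09 and 10.78 in selected lines 1 to 5. Selected lines 1 to 4 stood above every control line, and selected line 5 lay below control line 1, the highest of the controls. The means were 10.60 ± 0.20 and 11.11 ± 0.27 (SD, n = 5 each). The difference was 0.51 ± 0.14 (SE, 95% confidence interval of 0.21 to 0.81), with an unadjusted p of 0.00333 and an adjusted p of 0.267 from limma. An exact two-sided permutation test over all labelings of the lines gave p = 0.0159, where the smallest p possible is 0.00794. Tps1 was 136th of all features by p, and its spread within groups was at the 78.7th percentile of all features.

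Treh encodes trehalase, which splits trehalose into glucose. Its level was 10.03, 9.90, 9.91, 10.07 and 10.06 in control lines 1 to 5, and 9.96, 10.05, 9.88, 10.13 and 9.97 in selected lines 1 to 5. The lines of both groups were mixed between 9.88 and 10.13. The difference was 0.0023 with a 95% confidence interval of -0.15 to 0.15, which spans 0.902-fold to 1.11-fold (limma, adjusted p = 0.999). The SD within groups was 0.089, at the 10.6th percentile of all features. A comparison of the 2 genes with each other was chosen after their values were seen. The log2 level of Tps1 minus that of Treh averaged 0.61 ± 0.15 in the controls and 1.11 ± 0.32 in the selected group (SD, n = 5 each), a shift of 0.51 (exact two-sided permutation p = 0.0238), and 3 selected lines stood above every control line. Treh differed by only 0.0023, so this shift is the difference of Tps1 again and not a second result.

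Other genes of trehalose metabolism were read from a list of 10, of which 8 had a measured probe set. Their median difference was 0.020, with 4 higher and 4 lower means, and 1 of them stood higher at an unadjusted p under 0.05, against 5.55% of all features. This was CG5177, one of the genes for trehalose-phosphate phosphatases, which remove the phosphate from trehalose phosphate. Its level was 9.13, 8.06, 8.18, 8.55 and 8.97 in control lines 1 to 5 and 9.37, 9.33, 9.33, 9.01 and 8.84 in selected lines 1 to 5, a difference of 0.60 ± 0.20 (SE, unadjusted p = 0.0134 from limma). Selected lines 1, 2 and 3 stood above every control line, and selected lines 4 and 5 lay between control lines. The other phosphatase gene, CG5171, differed by 0.18 ± 0.11 (SE). The hexokinase gene Hex-C, whose product phosphorylates glucose, differed by 0.23 ± 0.16, and UGP, which makes the UDP-glucose that both trehalose and glycogen synthesis use, by -0.085 ± 0.068 (SE). CG6262 was on the array and below the limit for measured features.

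Glys, AGBE and Glyp make and break glycogen. Glys, the glycogen synthase that extends the chains, lay between 9.40 and 9.65 in the control lines and between 9.47 and 9.61 in the selected lines, so that every selected line fell inside the control range. Its difference was 0.012 (95% confidence interval of -0.13 to 0.16, limma adjusted p = 0.999). Its spread within groups, an SD of 0.080, was the smallest of the 8 genes and at the 6.88th percentile of all features. AGBE, the branching enzyme, lay between 7.99 and 8.27 in the control lines and between 7.90 and 8.44 in the selected lines. Selected line 1 was below all control lines and selected lines 3 and 4 above them, and the difference was 0.063 (95% confidence interval of -0.16 to 0.29, limma adjusted p = 0.999).

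Glyp encodes glycogen phosphorylase, which releases glucose phosphate from the chain ends. Its level was 10.54, 10.19, 10.72, 10.84 and 10.81 in control lines 1 to 5, and 10.56, 10.68, 11.11, 10.93 and 10.82 in selected lines 1 to 5. Selected lines 3 and 4 stood above all control lines, and control line 2 was the lowest of the 10. The means were 10.62 ± 0.27 and 10.82 ± 0.21 (SD, n = 5 each), a difference of 0.20 ± 0.14 (SE, 95% confidence interval of -0.10 to 0.50, limma unadjusted p = 0.169). Without control line 2 the difference was 0.094, and without selected line 3 it was 0.13. The log2 level of Glyp minus that of Glys shifted by 0.19 between the groups (exact two-sided permutation p = 0.246).

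Around these genes, 7 of the 8 measured genes of a glycogen list of 10 had higher means, against 53.7% of all features, and 2 stood higher at an unadjusted p under 0.05, against 5.55%. The median difference was 0.20, and it was 0.11 without selected line 4 and 0.12 without control line 2. Both genes at an unadjusted p under 0.05 belong to phosphorylase kinase, the enzyme that switches glycogen phosphorylase on. PhKgamma, its catalytic subunit, was 9.55, 9.56, 9.54, 9.45 and 9.38 in control lines 1 to 5 and 9.57, 9.82, 9.61, 9.80 and 9.57 in selected lines 1 to 5. Every selected line stood above every control line, by a small margin, as in 0.803% of all features, and the difference was 0.18 ± 0.075 (SE, unadjusted p = 0.0367 from limma). CG8475, a regulatory subunit of the same kinase, differed by 0.30 ± 0.11 (unadjusted p = 0.0164) and the other regulatory subunit, CG7766, by 0.23 ± 0.25 (SE). The debranching enzyme gene CG9485 differed by 0.27 ± 0.15, and Gbs-76A, which targets a phosphatase to glycogen, by 0.56 ± 0.26 (SE) at the low control level of 3.87. The glycogenin gene Gyg, which primes new glycogen, differed by -0.043 ± 0.39 (SE), the widest error of the list.

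**Figure D2:**
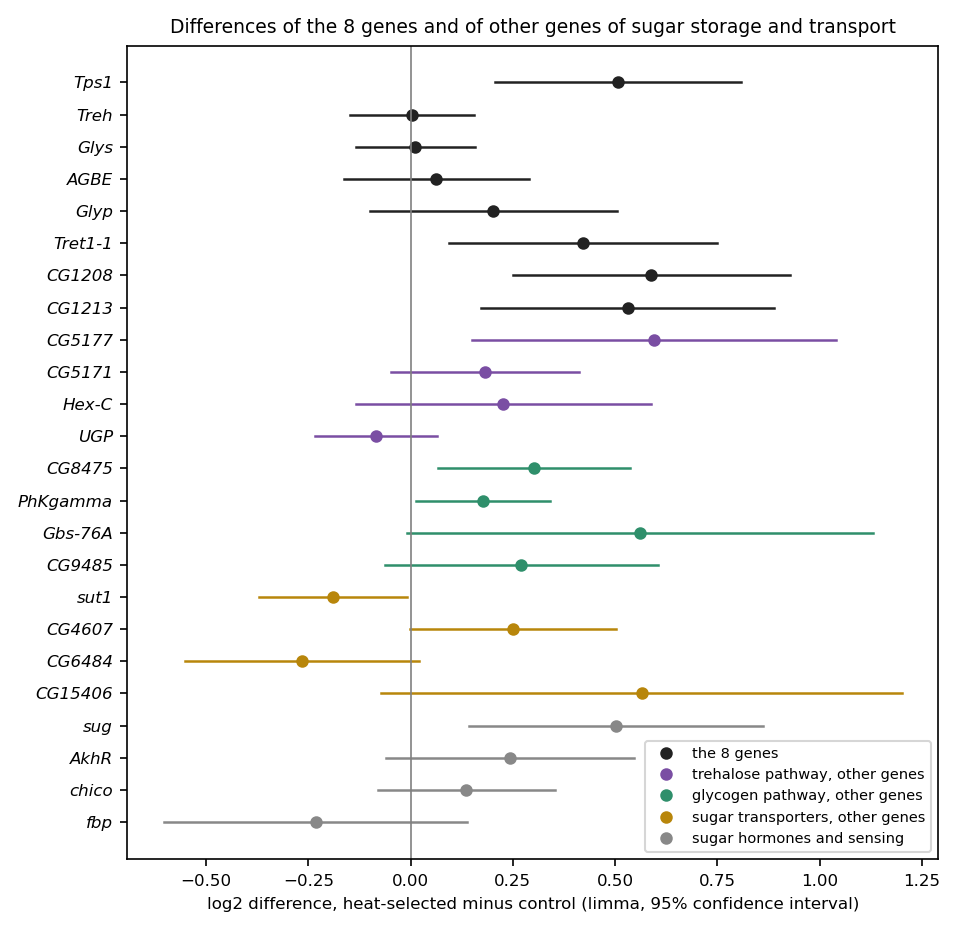
Log2 differences, heat-selected minus control, with 95% confidence intervals from limma (n = 5 lines each), for the 8 genes and for up to 4 genes of each of 4 lists with the smallest p. The intervals of Tps1, Tret1-1, CG1208, CG1213, CG5177, CG8475, PhKgamma and sug lie above 0 and that of sut1 below it, and none of these passed adjustment over all features.

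Among the transporter genes, CG1208 and CG1213 had the largest differences of the 8 in these lines. CG1208 is a predicted sugar transporter gene. Its level was 6.45, 6.22, 5.92, 6.36 and 6.38 in control lines 1 to 5, and 7.12, 6.88, 7.21, 6.62 and 6.44 in selected lines 1 to 5. Selected lines 1 to 4 stood above every control line, and selected line 5 was just below control line 1. The means were 6.27 ± 0.21 and 6.85 ± 0.33 (SD, n = 5 each), and the difference was 0.59 ± 0.15 (SE, 95% confidence interval of 0.25 to 0.93, unadjusted p = 0.00278 and adjusted p = 0.262 from limma). The exact two-sided permutation p was 0.0159.

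CG1213, also a predicted sugar transporter gene, lies next to CG1208 on chromosome arm 3R in the RefSeq gene table, with no protein-coding gene between them. Its level was 8.59, 8.06, 7.74, 8.14 and 8.49 in control lines 1 to 5, and 8.75, 8.81, 8.89, 8.89 and 8.34 in selected lines 1 to 5. Selected lines 1 to 4 lay close together above every control line, and selected line 5 fell among the controls, below control lines 1 and 5. The difference was 0.53 ± 0.16 (SE, 95% confidence interval of 0.17 to 0.89, unadjusted p = 0.0075 and adjusted p = 0.326 from limma). The exact two-sided permutation p was 0.0238. In both neighbours control line 3 was the lowest of the 10 lines and selected line 5 the lowest of the selected lines.

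Tret1-1 encodes a trehalose transporter of the cell membrane, known from flies to carry trehalose between blood and tissues. The array holds 2 probe sets that name it alone and 1 that it shares with its neighbour on arm 2R, Tret1-2. The probe set with the higher mean, which stands for the gene in the fit, was 9.73, 9.13, 9.17, 9.48 and 9.36 in control lines 1 to 5, and 9.85, 9.56, 10.19, 9.90 and 9.48 in selected lines 1 to 5. Selected lines 1, 3 and 4 stood above every control line, and selected lines 2 and 5 lay between control lines. The difference was 0.42 ± 0.15 (SE, 95% confidence interval of 0.093 to 0.75, unadjusted p = 0.0164 and adjusted p = 0.386 from limma), and the exact two-sided permutation p was 0.0397.

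The other probe set of Tret1-1 alone showed another order of the lines. It read 5.30, 5.28, 6.38, 6.36 and 6.33 in control lines 1 to 5, and 4.49, 5.95, 7.09, 7.28 and 6.56 in selected lines 1 to 5. Selected line 1 was the lowest of all lines here and the third highest on the first probe set. The difference was 0.34 (means of 5.93 ± 0.58 and 6.27 ± 1.12, SD, n = 5 each, exact two-sided permutation p = 0.563). With the mean of both probe sets in place of the first, the difference of Tret1-1 was 0.38 at an unadjusted p of 0.170 from limma. The shared probe set ran from 8.65 to 9.02 in the control lines and from 8.83 to 9.79 in the selected lines, with selected lines 1 to 4 above every control line and a difference of 0.53 ± 0.15 (SE, unadjusted p = 0.00492 and adjusted p = 0.304 from limma). The probe set of Tret1-2 alone stayed between 2.52 and 3.24 on all arrays, within the range of 2.13 to 3.64 of 23 control probe sets for other organisms.

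The order of the lines was set beside the 3' excess of each array, the log2 signal at the 3' end minus that at the 5' end of the array's fly controls, a known sign of degraded RNA. This excess was 2.27 in control line 1 and 2.76 in selected line 1, and between 1.43 and 1.93 in the other lines. Across the 10 lines, 9 relations were computed, one for each probe set that names 1 of the 8 genes alone. The second probe set of Tret1-1 was lower where the excess was larger, with Pearson's r of -0.886 (permutation p = 0.00043, adjusted p = 0.00387) and Spearman's rho of -0.770 (permutation p = 0.012, adjusted p = 0.054). For AGBE the relation had the same sign, with r of -0.827 (permutation p = 0.00165, adjusted p = 0.00742) and rho of -0.855 (permutation p = 0.00284, adjusted p = 0.0256). Without line 1 of both groups, the 2 arrays farthest from the median excess, r was -0.730 for the former and -0.824 for AGBE. For the other 7 probe sets r lay between -0.507 for Glyp and 0.316 for Tps1, and its adjusted permutation p was 0.422 or above. Spearman's rho was -0.733 for Glyp (permutation p = 0.0189, adjusted p = 0.0568). Without line 1 of both groups r turned to -0.703 for Tps1, -0.730 for the first probe set of Tret1-1, -0.687 for CG1213 and -0.525 for CG1208. In these 8 lines the excess was 1.43 to 1.74 in the selected group and 1.72 to 1.93 in the controls. No relation was computed within a group of 5 lines, and none for the lists. The mean level of the measured glycogen list genes was lowest among controls in lines 2 and 1, at 7.73 and 7.90. Among selected lines it was lowest in line 1, at 7.85, and highest in line 4, at 8.57. The part of the excess in the glycogen list was not tested.

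**Figure D3:**
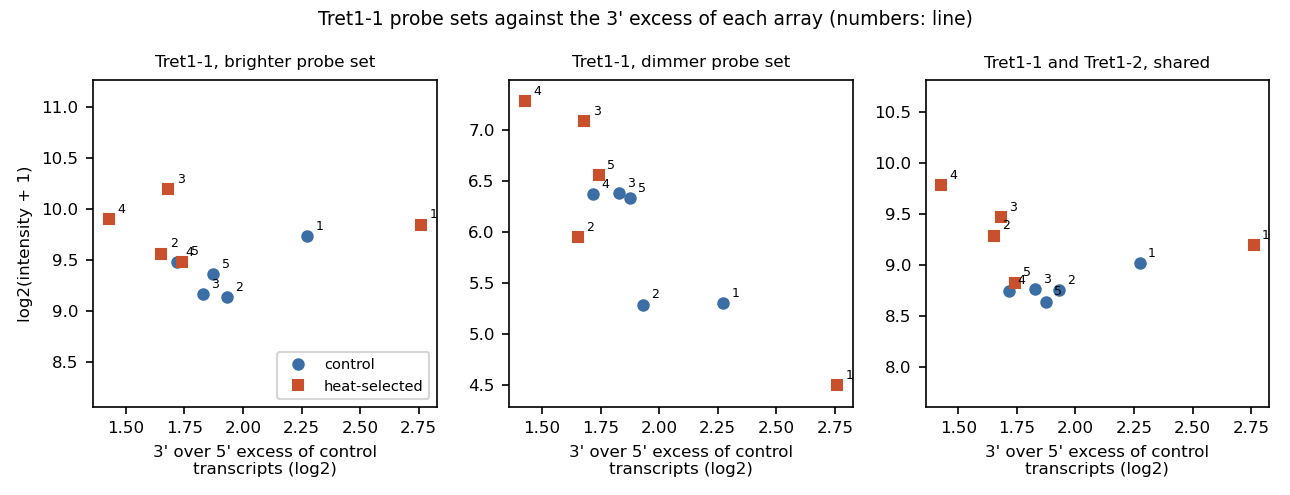
Log2(intensity + 1) of the 3 probe sets of Tret1-1, one shared with Tret1-2, against the 3' excess of each array, with points numbered by line; the vertical axes span the same range. The probe set in the middle panel falls from 7.28 in selected line 4 to 4.49 in selected line 1; in the outer panels selected line 1 lies at 9.85 and 9.20, above every control line.

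Line 1 of both groups was left out for the 4 genes with an unadjusted p under 0.05. Without line 1 of both groups the difference was 0.50 for Tps1, 0.57 for CG1208, 0.62 for CG1213 and 0.50 for Tret1-1. With the 3' excess as a covariate it was 0.53, 0.61, 0.54 and 0.43 in the same order. In each of these fits 4 of the 8 genes stood at an unadjusted p under 0.05. For the probe sets fitted for these 4, r with the excess was 0.023 to 0.32 over all lines. It was -0.730 to -0.525 without line 1 of both groups, where the excess was mostly lower in the selected group. Leaving out line 1 cannot separate the excess from the group. The covariate fit sets a single slope over all lines, the far-off line 1 arrays included. The part of the excess in these differences was not tested.

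Other sugar transporter genes had higher and lower means in similar numbers. Of a list of 22, 18 were measured, with 10 higher and 8 lower means and a median difference of 0.034. At an unadjusted p under 0.05 stood 0 higher and 1 lower, against 5.55% and 3.97% of all features. That 1 was sut1, at 8.68, 8.86, 8.65, 8.96 and 8.70 in control lines 1 to 5 and 8.74, 8.45, 8.53, 8.64 and 8.53 in selected lines 1 to 5, a difference of -0.19 ± 0.083 (SE, unadjusted p = 0.0416 from limma). CG6484 differed by -0.26 ± 0.13, CG4607 by 0.25 ± 0.12 and CG15406 by 0.57 ± 0.29 (SE), and the glucose transporter gene Glut1 by -0.024 ± 0.12. For 4 of the 18 genes the mean level was no higher than the brightest control probe set of another organism.

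Hormones and sensors set the balance between stored and circulating sugar: adipokinetic hormone mobilises the stores, and insulin-like peptides lower blood sugar. Of a list of 21 such genes and enzymes of glucose synthesis, 16 were measured, with 10 higher and 6 lower means and a median difference of 0.039. At an unadjusted p under 0.05 stood 1 of the 16, with a higher mean, against 5.55% of all features. This was sug (sugarbabe), a zinc finger factor known to respond to dietary sugar, which was 5.03, 4.66, 4.24, 4.33 and 5.10 in control lines 1 to 5 and 5.32, 5.31, 5.07, 5.16 and 5.01 in selected lines 1 to 5. Its difference was 0.50 ± 0.16 (SE, unadjusted p = 0.0106 from limma), with selected lines 1, 2 and 4 above every control line. The hormone gene Akh, at a low control level of 3.83, differed by 0.062 ± 0.17 and its receptor gene AkhR by 0.24 ± 0.14 (SE). The control levels of sug and AkhR, 4.67 and 4.84, were low too. The insulin-like peptide gene Ilp2 differed by 0.091 ± 0.26 and the insulin receptor substrate gene chico by 0.14 ± 0.099 (SE). The glucose synthesis genes Pepck1 and fbp differed by 0.21 ± 0.19 and -0.23 ± 0.17 (SE).

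Whole flies mix tissues, so markers of tissues were read beside these genes, and in such samples fewer cells of a type and less RNA per cell cannot be told apart. Of 18 measured muscle markers 18 had higher means in the selected lines against 53.7% of all features, and 15 stood at an unadjusted p under 0.05, against 5.55% of all features higher. Their median difference was 0.85. Their mean level was 9.22, 7.90, 8.61, 8.77 and 9.23 in control lines 1 to 5 and 8.89, 10.01, 10.01, 9.98 and 9.33 in selected lines 1 to 5. No relation of the 8 genes to this mean level was computed. TpnC41C, one of the 18 markers, was among the profiles most alike to Tps1 (Pearson's r = 0.97) and to CG1208 (0.935). It was picked for its large r, which holds the group difference too. None of the 18 was among those named for the others of the 8 genes. The places of single lines given next are a description, and the part of muscle was not tested. Control line 2 was the lowest line for Glyp and for muscle markers. Control line 4, the highest control line for Glyp at 10.84, lay at 8.77 for muscle markers, below control lines 1 and 5. Selected line 1, the highest line for Tps1, was the lowest selected line in the mean of all 18 and lay below control lines 1 and 5. That place rests on 4 genes, Act88F, fln, TpnC4 and Mlp60A, which were chosen after their values were seen. The place of selected line 1 without them follows from that choice and is a description, not a test. Without them the mean of the other 14 was 9.71 in selected line 1, above every control line (8.51 to 9.43), and 9.50 to 10.08 in the other selected lines.

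Fat body markers, from the tissue that makes trehalose, had lower means for 9 of 11, with a median difference of -0.11. Their mean level ran from 10.01 to 10.28 over the controls and from 9.53 to 9.89 over the selected group, without overlap. The storage protein gene Lsp2 had the largest difference of the list, at -3.49, and without it, a choice made after seeing the data, the mean level of the other 10 genes overlapped, from 10.18 to 10.28 in the controls and from 10.03 to 10.20 in the selected group. Of the 11 genes, 4 stood lower at an unadjusted p under 0.05, against 3.97% of all features. The yolk protein genes on the list are also expressed in the ovary. The lipase gene bmm differed by -0.27 ± 0.078, the lipid droplet gene Lsd-1 by -0.023 ± 0.12 and the lipoprotein gene apolpp by -0.24 ± 0.16 (SE). Ovary and eggshell markers had lower means for 13 of 15 (median -0.53) and higher means for 2, where 53.7% of all features had higher means. Their mean levels were 11.53 to 11.86 over the controls and 10.68 to 11.53 over the selected group. Of the 15 genes, 9 stood lower at an unadjusted p under 0.05 from limma, against 3.97% of all features. For 3 genes, all lower, the groups did not overlap, against 1.59% of all features in either direction. Neuron and glia markers had higher means for 7 of 7 (median 0.18), against 53.7% of all features. Their mean levels were 5.01 to 5.21 over the controls and 5.08 to 5.45 over the selected group. At an unadjusted p under 0.05 from limma stood 2 of the 7, both higher, against 5.55% of all features. These were futsch, at 0.44 ± 0.12, and nSyb, at 0.34 ± 0.12 (SE), with low control levels of 4.99 and 4.90. Gs2 differed by 0.32 ± 0.22 (SE). The glial genes repo and moody, at low control levels of 3.99 and 4.64, differed by 0.023 and 0.070. Gut markers had higher means for 5 of 9 (median 0.12), with mean levels of 10.66 to 11.07 and 10.48 to 10.93. At an unadjusted p under 0.05 from limma stood 2 higher and 1 lower, against 5.55% and 3.97% of all features. The groups did not overlap for Jon25Bii, lower at -1.27 ± 0.26, and Mal-B2, higher at 0.71 ± 0.14 (SE), against 1.59% of all features. The part of these tissues in the differences of Tps1 and the transporters was not tested.

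**Figure D4:**
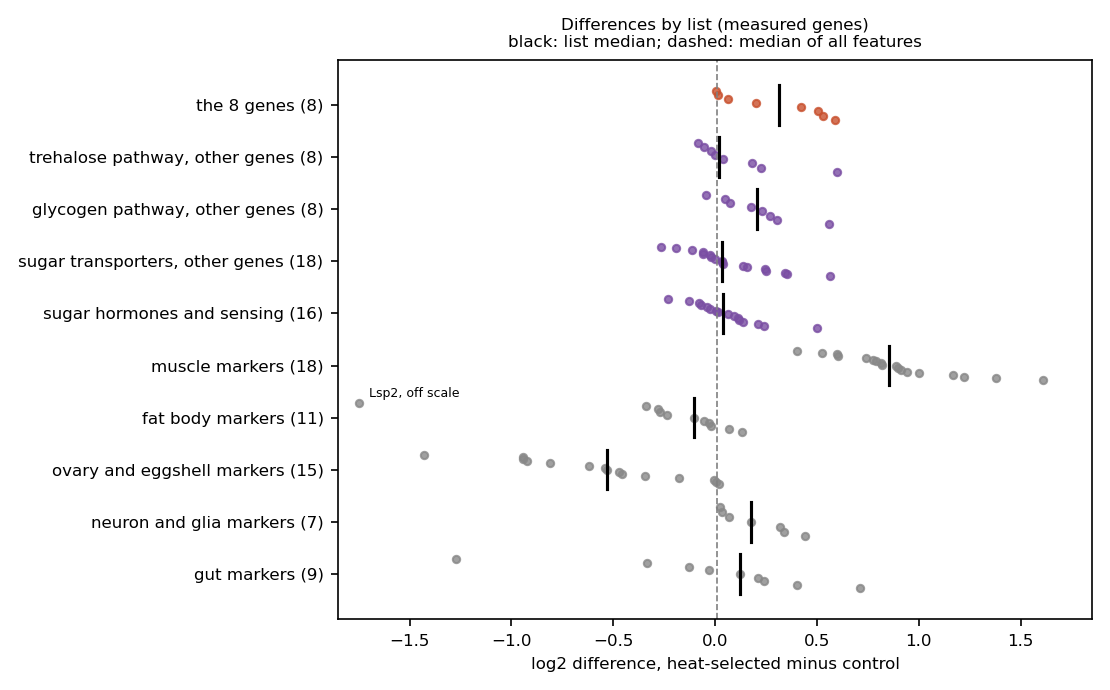
Log2 differences, heat-selected minus control, for every measured gene of the 8 and of the lists of pathway genes and tissue markers, with the number of genes in brackets. Black bars are list medians, from -0.53 for ovary and eggshell to 0.85 for muscle, and the dashed line is the median of all features (0.0075); Lsp2 at -3.49 is drawn at the edge.

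The female label was read against yolk protein genes and genes of male tissue. Yp1, Yp2 and Yp3 lay at 13.42 or above on all arrays. Of 14 genes of testis and accessory gland the highest single value was 4.57, for Acp26Aa, beside up to 3.64 for control probe sets of other organisms. Arrays correlated at r of 0.987 to 0.998 across all probe sets, which are not independent replicates, and array medians lay between 41.9 and 48.3 in intensity.

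For each of the 8 genes the most alike profiles over the 10 arrays were named by Pearson's r, a description that holds the group difference and the RNA quality the arrays share. Nearest to Tps1 were inaD, the scaffold of the photoreceptor cascade (r = 0.975), the muscle troponin C gene TpnC41C (0.970) and CG34417 (0.956). CG1208 was nearest to inaD too (0.944), then to Strn-Mlck (0.938), a muscle protein kinase gene, and TpnC41C (0.935). CG1213 was nearest to Frq1, a calcium sensor of synapses (0.969), Gbeta76C, the G protein subunit of the eye (0.967), and CG14687 (0.958). Tret1-1 was nearest to the transporter gene Mdr49 (0.968), vig (0.945) and Syp (0.940). Glyp was nearest to CG5758 (0.938), CG30054 (0.936) and ldd (0.932), and AGBE to CG12091 (0.980), Pits (0.926) and CG32687 (0.904). The genes with little spread had lower values: Treh was nearest to Bdbt (0.864), CG7810 (0.828) and BomS2 (0.802), and Glys to the acetylcholinesterase gene Ace (0.866), CDase (0.824) and Cdep (0.814). None of the 8 genes was among the 3 most alike of another.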

How the data were processed

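The authors deposited a linear intensity for each probe set on 10 arrays, computed with GCRMA per the submitters' processing notes (background from probe sequence, normalization across arrays, summary by probe set). The GCRMA version was not given in the sources used here. GCRMA pulls dim probe sets toward a floor. Of 14010 probe sets, 12443 name 1 gene, 327 several and 1196 none in the platform annotation, and 44 are controls. The 8 genes matched by symbol or by synonym in RefSeq (Release 6). That table gave names, arms and neighbours. Sequences of these genes were not used here.

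All tests used log2(intensity + 1). Features above 3 on at least 5 of 10 arrays were kept, controls left out, and the probe set with the highest mean stood for a gene, leaving 10960 features, 9672 with a symbol. Groups came from sample titles. limma 3.58.1 in R 4.3.3 (lmFit, eBayes, two-sided, Benjamini-Hochberg over all features, threshold 0.05) compared them, with exact permutation tests over lines for single genes and 100000 permutations for relations. limma was tested on simulated data. Precision is limited by the number of arrays.

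The genes, the lists and the tests were chosen with earlier results of these data known. Named genes are the 8, up to 4 of each pathway list by smallest p and, for each of the 8, the 3 most alike profiles. Further genes were named from the lists after their values were seen. Among them were CG7766, Gyg, Glut1, Akh, Ilp2, Pepck1, bmm, Lsd-1, apolpp, futsch, nSyb, Gs2, repo, moody, Lsp2, Jon25Bii and Mal-B2. Glycogenin and the debranching enzyme were matched to Gyg and CG9485 by hand after the files were opened. Alternatives were other pseudocounts, filters, scalings, probe set rules and limma settings, a line number block, the 3' excess as covariate, and lines left out.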

Additional observations from a re-analysis of the deposited data

Results flagged for a closer look

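Of 46 groups of 5 lines examined (each probe set of the genes and of Tret1-2, the list scores and the 3' excess), 3 held a line whose gap to its nearest neighbour was above Dixon's critical share of the whole range, where chance gives about 1 in 20. CG1213 was at 8.34 in selected line 5, apart from the other selected lines at 8.75 to 8.89. The score of the gut markers, an average over its genes after centring each, was -0.313 in selected line 3 and 0.0074 to 0.13 in the other selected lines. The 3' excess was 2.76 in selected line 1 and 1.43 to 1.74 in the other selected lines.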

How the results depend on the processing

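The counts over features and over the 8 genes, the differences of the 8 genes and the list medians were recomputed under 21 alternatives. The exception was the median of the male tissue markers, of which none was left with a log2 value above 5 on at least 5 arrays. Single genes outside the 8, the shared probe set, exact permutation tests, relations to the 3' excess and most alike profiles were not recomputed. The differences of Tps1 (0.42 to 0.59), CG1208 (0.50 to 0.69), CG1213 (0.41 to 0.63), Tret1-1 (0.32 to 0.51) and Glyp (0.094 to 0.27) kept their sign, and none of the 8 genes passed an adjusted p of 0.05, the lowest being 0.106 for Tps1. Signs of the differences near 0 turned. With each array centred on its median, Treh was -0.066, Glys -0.056 and AGBE -0.0048, and with the 3' excess as covariate Treh was -0.0021. With 1 line left out, Treh ran from -0.031 to 0.031, Glys from -0.016 to 0.048 and AGBE from -0.0023 to 0.13. The number of features past the adjusted threshold was 0, and 0 to 3 with 1 line left out (3 without control line 5, 1 without selected line 2). Line numbers shared by the groups gave a block in which 2 features passed. Deviations from group means of same-numbered lines correlated at 0.027 for line 5 and 0.20 to 0.55 for the others, and not every line correlated best with its own number, so pairing was not taken as given. Of the 8 genes, 4 stood at an unadjusted p under 0.05 under 20 alternatives, and 3 with the mean over the probe sets of a gene. With only features above 5 on at least 5 arrays, the median difference was -0.24 for fat body markers and 0.34 for neuron and glia markers. For neuron and glia markers it was 0.082 with a pseudocount of 16. That of the glycogen list ran from 0.11 (without selected line 4) to 0.27, and the medians of the trehalose, transporter and hormone lists, all within 0.09 of 0, took either sign.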
